A study of Mus musculus with 6 samples.

Results

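Trem2, a surface receptor of microglia, and Tyrobp, the membrane adaptor through which it signals, are 2 of the 32285 gene identifiers counted in 6 spatial transcriptomic sections of mouse brain. Both were chosen by measured values, because their whole-section levels were higher in old than in young sections of these same data. Their levels and age differences are therefore given as a description, with no test. Tests are given for the difference of their age change between white matter and the rest of the section, for their ratio, and for other genes of their pathway.

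The sections were 16 micron coronal cuts of frozen brains from male C57BL/6J mice, with 2 animals each at 6 months (young), 18 months (middle) and 21 months (old). No treatment, transgene or induced mutation is named for any group. Young 1, young 2, middle 1 and old 1 lay on slide 1, and middle 2 and old 2 on slide 2, so young sections came from slide 1 alone. Visium slides carry a grid of barcoded spots that capture polyadenylated RNA from the tissue above them, and each captured molecule is counted once by its unique molecular identifier (UMI).

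Trem2 recognises lipids, lipoproteins such as those carrying Apoe and Clu, and debris, including that of myelin. It has no signalling motif of its own and pairs with Tyrobp, also known as DAP12, whose phosphorylated tail recruits the kinase Syk. Tyrobp serves several other myeloid and natural killer cell receptors as well. In the brain both genes are known chiefly from microglia, and the Trem2 pathway is known for the microglial state found around myelin debris and amyloid.

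In the GRCm38 annotation Trem2 (ENSMUSG00000023992) lies on the plus strand of chromosome 17, from 48346401 to 48354147, and its longest coding transcript has 5 exons. Its neighbours Treml2 and Treml1 belong to the same receptor cluster, and Treml1 starts 5768 bases past the end of Trem2 on the same strand. Tyrobp (ENSMUSG00000030579) lies on the plus strand of chromosome 7, from 30413760 to 30417585, also with 5 exons. Hcst, which encodes the related adaptor DAP10, ends 126 bases from the end of Tyrobp on the opposite strand. The 250 bases before the start of Trem2 (chr17:48346151-48346400, plus strand, GRCm38.p6, from RefSeq) are shown because Spi1, whose product binds myeloid promoters, is among the pathway genes described further on. The core motif GAGGAA of PU.1, the protein encoded by Spi1, was searched on both strands, and capitals mark its only match, which lies on the opposite strand.

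Trem2 promoter: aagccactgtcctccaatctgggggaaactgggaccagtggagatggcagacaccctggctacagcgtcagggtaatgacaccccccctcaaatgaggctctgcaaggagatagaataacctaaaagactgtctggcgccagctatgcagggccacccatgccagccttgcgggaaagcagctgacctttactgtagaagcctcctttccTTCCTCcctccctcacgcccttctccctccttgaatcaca

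The match begins 40 bases before the start of the gene. GAGGAA on either strand occurred in 23.3% of 32851 RefSeq promoter entries over the same 250 bases. The letters CACGTG, an E-box searched on both strands, were not found in this window and occurred in 6.02% of entries.

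Between 2573 and 2973 spots per section held at least 500 UMIs (16741 in all), with 60938938 to 77557934 UMIs per section. The median per spot ran from 20370 UMIs in old 2 to 30093 in young 1, and both old sections were the shallowest. Clustering, done without Trem2, Tyrobp and other microglial or immune genes, gave 24 clusters, of which 15 were named as 9 regions by their markers. The other 9 clusters (5116 spots) were left unnamed. White matter was 1 cluster of 1157 spots, 159 to 215 per section, with the myelin genes Cldn11, Trf and Mal among its leading genes. Of the unnamed clusters, 2 (861 and 201 spots) held 11 and 12 white matter markers among their leading 50 genes but only 2 among the first 10, and their spots count among all other spots. A spot is a small area that can hold several cells, and each of the 11 resting microglia markers had UMIs in every section. More microglia and more RNA per microglial cell cannot be told apart in these sums. The array grid is shared, and 1919 spot barcodes occurred in all 6 sections.

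Trem2 was higher in every middle and old section than in either young section. It measured 17.6 and 18.9 UMIs per 1000000 (CPM) in young 1 and young 2, from 1351 and 1469 UMIs. It measured 26.8 and 29.8 CPM in middle 1 and middle 2, and 30.5 and 36.2 CPM in old 1 and old 2. The 3 ages did not overlap, and their means were 18.3 ± 0.97, 28.3 ± 2.1 and 33.3 ± 4.1 CPM (SD, n = 2 each). The old mean was 1.83 times the young mean, with an edgeR log2 fold change of 0.82 (SE 0.089). Without old 2, the section with the highest Trem2 level, that log2 fold change was 0.69.

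Tyrobp followed the same order at a higher count. It measured 56.1 and 54.0 CPM in young 1 and young 2, from 4316 and 4188 UMIs. It then measured 74.2 and 83.4 CPM in the middle sections and 87.3 and 99.7 CPM in the old ones. Here too the ages did not overlap, with means of 55.1 ± 1.5, 78.8 ± 6.5 and 93.5 ± 8.7 CPM (SD, n = 2 each). The old mean was 1.70 times the young mean, a log2 fold change of 0.71 (SE 0.081). Both old sections lay above both young ones for 32.1% of the 17673 genes tested, a share against which this lack of overlap has to be read. Both middle sections lay above both young ones for 22.2% of genes, and both old above both middle ones for 23.5%.

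Most of the whole-section difference lay between 6 and 18 months. The log2 fold change from young to middle was 0.61 (SE 0.089) for Trem2 and 0.49 (SE 0.081) for Tyrobp. From middle to old it was 0.21 (SE 0.087) for Trem2 and 0.22 (SE 0.081) for Tyrobp. Without old 2 the values from middle to old were 0.07 and 0.12. The 2 steps share the middle sections and do not span the same number of months. In both ages that used both slides, the slide 2 section was the higher one, by 0.15 (middle) and 0.25 (old) in log2 CPM for Trem2 and by 0.17 and 0.19 for Tyrobp. Within slide 1, old minus young was 0.74 for Trem2 and 0.67 for Tyrobp. Old minus middle was 0.19 on slide 1 and 0.28 on slide 2 for Trem2, and 0.23 and 0.26 for Tyrobp, and none of these signs differed between slides. Slide and animal cannot be told apart within an age.

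White matter held the highest level of both genes in 6 of 6 sections. Trem2 in white matter measured 52.2 CPM in young 1 and 42.9 CPM in young 2, from 135 and 107 UMIs. It measured 82.8 and 106 CPM in the middle sections and 139 and 182 CPM in the old sections. Each old section was above each middle one and each middle one above each young one. The means were 47.6 ± 6.6, 94.4 ± 16 and 160 ± 31 CPM (SD, n = 2 each), so that old white matter held 3.37 times the young level. Both old sections lay above both young ones for 25.5% of the 12026 genes tested in white matter. Both middle sections lay above both young ones for 23.4% of them, and both old above both middle ones for 22.5%.

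Tyrobp in white matter measured 136 and 155 CPM in young 1 and young 2, from 351 and 386 UMIs. It measured 216 and 291 CPM in the middle sections and 371 and 469 CPM in the old ones. Its means were 145 ± 14, 254 ± 53 and 420 ± 70 CPM (SD, n = 2 each), an old level 2.89 times the young one. The spread within an age was again in the direction of slide 2 over slide 1, by 0.36 (middle) and 0.39 (old) in log2 CPM for Trem2 and by 0.43 and 0.34 for Tyrobp. Within slide 1, old white matter exceeded young by 1.55 for Trem2 and 1.35 for Tyrobp. Old white matter exceeded middle by 0.74 on slide 1 and 0.78 on slide 2 for Trem2, and by 0.78 and 0.69 for Tyrobp.

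**Figure D1:**
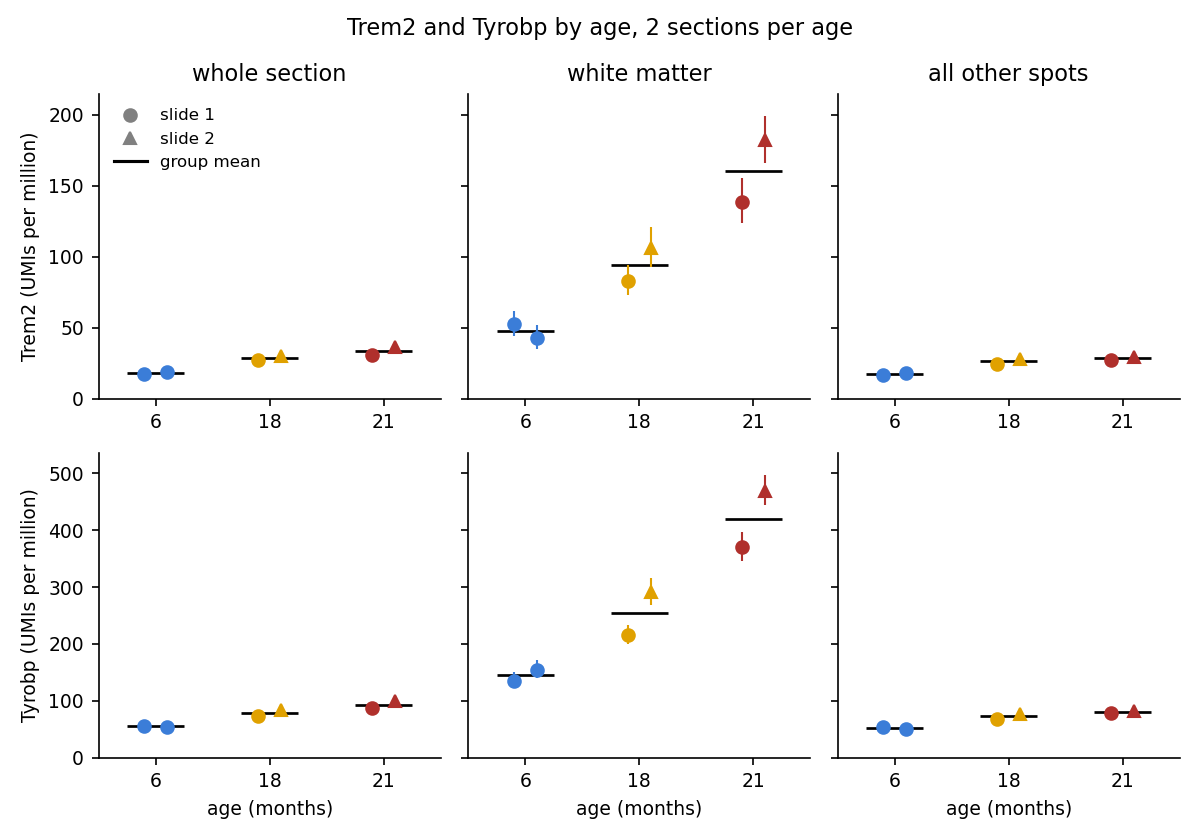
Trem2 (top) and Tyrobp (bottom) in CPM by age in months, in whole sections, white matter and all other spots. Each point is 1 section, with its exact 95% binomial interval (counting error only), the symbol gives the slide and the bar the mean of 2 sections. Old white matter stands at 139 and 182 for Trem2 and at 371 and 469 for Tyrobp, above every other value of its gene.

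Over all other spots Trem2 measured 17.3 ± 1.3, 26.1 ± 2.1 and 28.3 ± 1.8 CPM at the 3 ages (SD, n = 2 each), and middle and old overlapped. Tyrobp measured 52.0 ± 1.9, 73.0 ± 6.2 and 80.4 ± 3.2 CPM there. The white matter level of Trem2 was 2.78 ± 0.58 times that of the other spots in young, 3.60 ± 0.33 times in middle and 5.65 ± 0.73 times in old sections. The same ratios for Tyrobp were 2.80 ± 0.36, 3.46 ± 0.43 and 5.21 ± 0.66.

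Whether the change between old and young differed between white matter and the other spots of the same sections was tested in edgeR with section as a block. The change in white matter exceeded that elsewhere by a log2 fold of 1.04 for Trem2 (SE 0.14, edgeR adjusted p = 2.19e-10) and of 0.91 for Tyrobp (SE 0.094, edgeR adjusted p = 2.34e-18). The test called 243 of 17476 genes, which is 1.39% of them. White matter was singled out because earlier results of these data showed the most microglial change there. The region as well as the pair was thus chosen from these sections, and the p-values do not allow for that choice. The edgeR fit also took the spread largely from all genes, so the size of these p-values does not reflect 2 animals an age alone. Section by section, the log2 excess of white matter over other spots was 1.67 and 1.24 for Trem2 in young 1 and young 2. It was 1.75 and 1.94 in middle 1 and middle 2, and 2.36 and 2.62 in old 1 and old 2. For Tyrobp it was 1.35 and 1.61, then 1.66 and 1.91, then 2.25 and 2.50. No old section fell within the range of the young or middle ones for either gene, but no share of all genes in that order is given for comparison. With white matter taken instead as the spots richest in myelin, the differences were 1.02 and 0.92. With limma on these differences within sections, the sizes were 1.04 and 0.90 but neither passed after adjustment (limma adjusted p = 0.107 for Trem2 and 0.0714 for Tyrobp), while DESeq2 called both (adjusted p = 1.32e-04 and 1.66e-05).

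White matter held 9.99% and 7.28% of the Trem2 UMIs of young 1 and young 2, 11.7% and 9.98% of those of middle 1 and middle 2, and 14.3% and 22.0% of those of old 1 and old 2. The exact 95% binomial intervals were 8.44% to 11.7% and 6.01% to 8.73% in the young sections, 10.3% to 13.2% and 8.77% to 11.3% in the middle ones and 12.8% to 15.8% and 20.3% to 23.8% in the old ones. For Tyrobp the shares were 8.13% and 9.22% in young, 11.0% and 9.80% in middle and 13.3% and 20.6% in old sections. In counting error for Trem2, young 1 overlapped both middle 1 and middle 2, and middle 1 overlapped old 1. White matter held 3.21% to 3.36% of all UMIs in the young sections, 2.81% to 3.78% in the middle sections, 3.13% in old 1 and 4.38% in old 2, the section with the largest shares of both genes.

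The other regions lay below white matter at each age. In young sections white matter (47.6 CPM of Trem2) was followed by meninges (25.2 ± 3.6), striatum (24.8 ± 5.4), choroid plexus and ventricle (20.6 ± 3.4) and hippocampal formation (18.7 ± 6.5), each overlapping the next. Hypothalamus (16.5 ± 0.22), amygdala and olfactory cortex (16.1 ± 0.21), thalamus (15.4 ± 0.35) and isocortex (14.9 ± 2.0) came last. All of their young values lay within the range of the young hippocampal sections except isocortex of young 1, at 13.5 CPM. In old sections the order after white matter (160 CPM) was striatum (46.4 ± 0.57), meninges (45.0 ± 8.6), choroid plexus and ventricle (43.8 ± 14), hippocampal formation (31.1 ± 4.9) and thalamus (30.8 ± 1.1). Hypothalamus (26.1 ± 8.8), isocortex (19.6 ± 2.4) and amygdala and olfactory cortex (19.3 ± 3.3) closed it, and neighbours below white matter overlapped throughout. Hippocampal formation had only 64 spots in young 1, with 30 Trem2 UMIs, against 175 to 285 in the other sections.

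Tyrobp gave nearly the same order. Young white matter (145 CPM) was followed by meninges (87.9 ± 18), choroid plexus and ventricle (75.0 ± 4.6) and striatum (74.1 ± 12), and the last was isocortex (43.8 ± 0.16). In old sections choroid plexus and ventricle (130 ± 26), striatum (122 ± 4.1) and meninges (119 ± 3.6) followed white matter (420 CPM) and overlapped. Isocortex was last again at 58.2 ± 3.4 CPM, with both old sections below those of every other region.

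**Figure D2:**
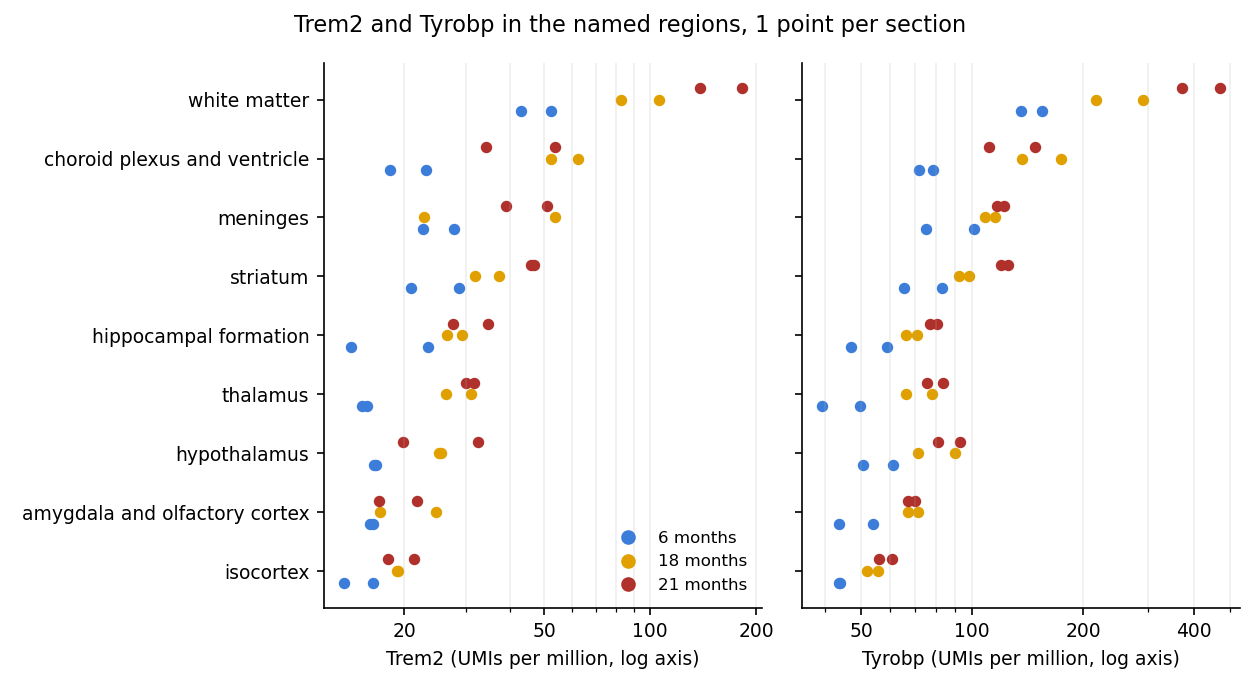
Trem2 (left) and Tyrobp (right) in CPM on log axes for the 9 named regions, 1 point per section, coloured by age. White matter is the highest region at each age, and old isocortex, at 17.9 and 21.3 for Trem2 and 55.8 and 60.7 for Tyrobp, is near the low end.

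Both old sections exceeded both young sections in 9 of 9 regions for Trem2 and in 9 of 9 for Tyrobp. The same order held for 25.5% of the genes tested in white matter, 27.5% in isocortex, 26.8% in thalamus, 26.6% in striatum and 26.1% in hypothalamus. It held for 19.6% in meninges, 17.6% in amygdala and olfactory cortex, 17.4% in choroid plexus and ventricle and 16.9% in hippocampal formation. The ratio of old to young means ran from 1.2 (amygdala and olfactory cortex) to 3.37 (white matter) for Trem2 and from 1.33 (isocortex) to 2.89 (white matter) for Tyrobp. Thalamus was the highest of the grey matter regions, at 2.00 for Trem2 and 1.79 for Tyrobp. Striatum stood at 1.87 and 1.65, and isocortex at 1.32 and 1.33. In meninges, with 16 to 48 Trem2 UMIs per section, the log2 fold change of 0.75 for Trem2 and 0.37 for Tyrobp fell to 0.25 and 0.14 with clusters at a Leiden resolution of 0.5.

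Old exceeded middle without overlap in fewer regions, 2 of 9 for Trem2 (white matter and striatum) and 5 of 9 for Tyrobp. The background share of genes was 28.3% in striatum, 22.5% in white matter, 21.6% in amygdala and olfactory cortex, 20.3% in thalamus and 20.2% in isocortex. It was 19.5% in hypothalamus, 18.6% in hippocampal formation, 17.4% in meninges and 14.7% in choroid plexus and ventricle. The old mean was below the middle mean in choroid plexus and ventricle and in amygdala and olfactory cortex (20.8 ± 5.3 and 19.3 ± 3.3 CPM for Trem2, 69.3 ± 3.2 and 68.4 ± 2.2 CPM for Tyrobp, with overlap). In choroid plexus and ventricle Trem2 measured 23.0 and 18.2 CPM in young, 62.2 and 52.3 in middle and 34.1 and 53.6 in old sections, so the middle mean (57.3 ± 7.0 CPM) stood above the old one (43.8 ± 14). Tyrobp did likewise, with 156 ± 27 CPM in middle and 130 ± 26 CPM in old, and the ranges overlapped for both genes. These values rest on 24 to 94 Trem2 UMIs per section.

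The levels were also read without cluster borders. Spots were sorted in each section by the share of their UMIs that came from myelin genes and divided into 10 equal groups. In the lowest group Trem2 averaged 12.9 CPM in young and 17.2 CPM in old sections, a ratio of 1.33. In the ninth group the means were 27.7 and 62.8 CPM, a ratio of 2.26, and in the highest 45.9 and 151 CPM, a ratio of 3.28. For Tyrobp the ratio was 1.10 in the lowest group (46.5 and 51.4 CPM), 1.85 in the ninth and 2.89 in the highest (134 and 389 CPM). The steps between were not all upward: the Trem2 ratio was 2.03 in the sixth group and 1.65 in the seventh.

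**Figure D3:**
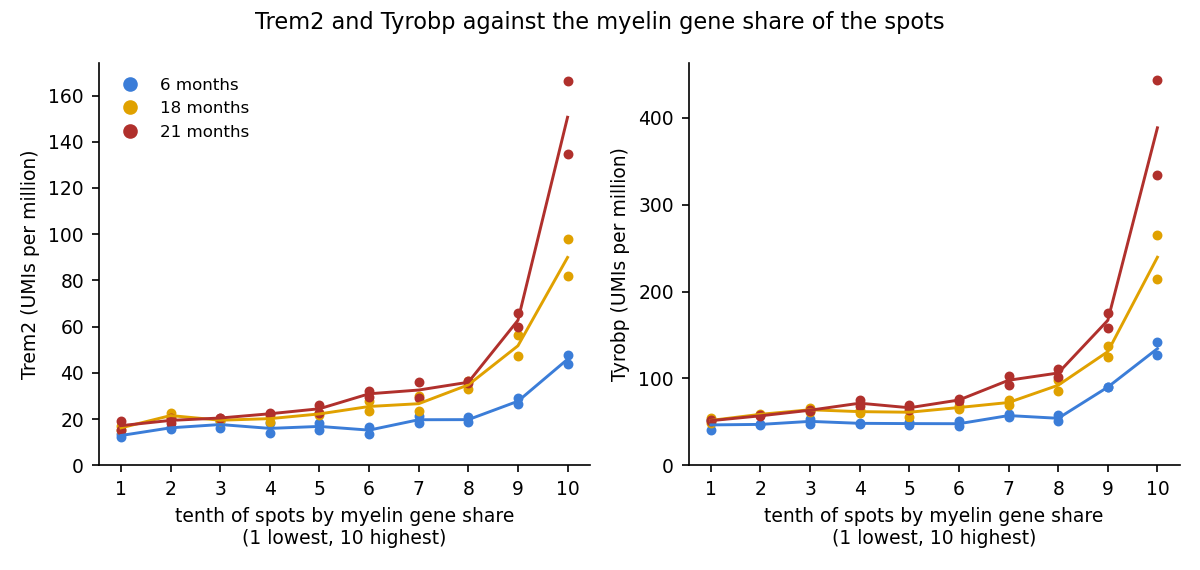
Trem2 (left) and Tyrobp (right) in CPM for 10 equal groups of spots, from the lowest to the highest share of myelin gene UMIs in each section. Points are sections and lines group means by age: the ages lie closest in the lowest groups (Trem2 12.9 in young and 17.2 in old in the first) and apart in the last (45.9 and 151).

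The share of spots with a UMI was compared at 1 depth. After each spot was thinned to 5000 UMIs (180 shallower spots left out), Trem2 was detected in 19.9% ± 5.4 of young, 35.6% ± 5.9 of middle and 49.4% ± 5.6 of old white matter spots (SD, n = 2 each). In all other spots the shares were 8.30% ± 0.45, 13.1% ± 0.15 and 14.4% ± 0.77. Tyrobp was detected in 48.7% ± 7.5, 68.0% ± 0.83 and 76.2% ± 6.4 of white matter spots and in 23.2% ± 1.1, 30.8% ± 2.6 and 31.8% ± 1.1 of the others. Without thinning, Trem2 was detected in 33.6% to 77.2% of white matter spots and 36.4% to 46.6% of other spots, at median depths of 10195 to 15174 and 21209 to 31546 UMIs. No region is known to lack microglia, so no share from tissue without them was at hand as a background.

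Spots with several UMIs were more frequent in middle and old than in young sections, both in white matter and in all other spots. These counts were not thinned. White matter spots had median depths of 11864 and 10736 UMIs in young, 15174 and 13065 in middle and 10195 and 11656 in old sections. At least 5 Tyrobp UMIs were counted in 17 of 199 and 9 of 214 white matter spots of young 1 and young 2, in 57 of 178 and 53 of 159 of the middle and in 72 of 192 and 104 of 215 of the old sections. A spot of old 2 held 59 Tyrobp UMIs, the most of any white matter spot. Both genes were found together in 68 thinned white matter spots of old 1 and 95 of old 2, against 22 and 19 in young. In old 1, 80.0% of white matter spots with Trem2 also had Tyrobp, against 64.7% of those without Trem2. In old 2 these were 85.6% and 75.3%. In white matter the gap was smaller in the other sections, with 46.8% against 42.4% in young 1, 55.9% against 53.7% in young 2, 69.6% against 66.4% in middle 1 and 71.0% against 67.0% in middle 2. Such a gap was not particular to old white matter. All other spots had it in every section, from 29.1% against 23.5% in young 1 to 44.9% against 28.6% in old 2.

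Relative to its mean, the ratio of the 2 genes varied less than their levels in whole sections and in white matter. That did not hold in every region. In meninges the ratio averaged 3.24 ± 1.1 (SD, n = 6), while Tyrobp averaged 106 ± 17 CPM. UMIs at the 3′ end are not scaled by transcript length, and the ratio serves here only to compare sections and regions. In whole sections the 2 young values were 3.19 and 2.85 Tyrobp UMIs per Trem2 UMI. The middle values were 2.77 and 2.79 and the old ones 2.87 and 2.75, so young and old overlapped. Over all 6 sections it averaged 2.87 ± 0.16 (SD, n = 6), while the level of Trem2 differed by 1.83 times between old and young. An exact permutation test over the 3 ages gave p = 0.4 (two-sided, 0.733 after Benjamini-Hochberg adjustment over 2 tests). With 2 sections per age the smallest p it allows is 0.067, above the threshold used for calls here. No outcome could have passed, so the test cannot decide whether the ratio differed with age. The ratio was also formed from the whole-section counts by which the 2 genes were chosen.

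In white matter the ratio was 2.60 and 3.61 in young, 2.61 and 2.75 in middle and 2.67 and 2.58 in old sections (exact permutation p = 0.733, also 0.733 adjusted). The white matter test has the same smallest p as that of whole sections and cannot decide the question either. The high value of young 2 rests on 107 Trem2 UMIs. Its exact 95% counting interval, 2.90 to 4.51, overlapped the 2.13 to 3.19 of young 1. The ratio was lower in white matter than in the other spots in 5 of 6 sections. By region its mean over 6 sections ran from 2.65 ± 0.39 in hippocampal formation to 3.36 ± 0.65 in amygdala and olfactory cortex, with 2.92 ± 0.22 in isocortex, and the section values of these regions overlapped.

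**Figure D4:**
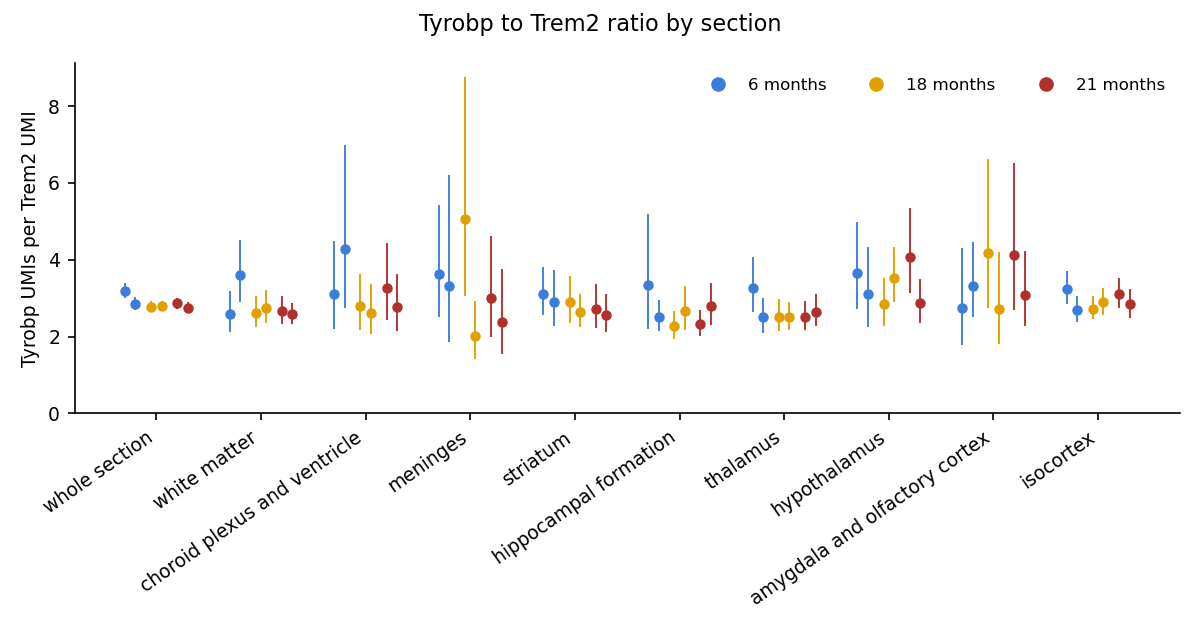
Tyrobp UMIs per Trem2 UMI in whole sections and in the 9 regions, 1 point per section with its exact 95% counting interval, coloured by age. Points run from 2.02 to 5.05, and the widest intervals belong to regions with few Trem2 UMIs, such as meninges.

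Trem2 and Tyrobp were set against other microglial transcripts. The summed level of 11 resting microglia genes, among them Cx3cr1 and P2ry12, was 301 ± 19 CPM in young, 334 ± 7.0 in middle and 358 ± 14 in old whole sections. In white matter it was 676 ± 78, 811 ± 29 and 1117 ± 90 CPM. Per 100 UMIs of these genes, Trem2 had 6.07 ± 0.064, 8.47 ± 0.46 and 9.30 ± 0.78 UMIs in whole sections and 7.14 ± 1.8, 11.6 ± 1.6 and 14.3 ± 1.6 in white matter (SD, n = 2 each). Tyrobp had 18.4 ± 1.7, 23.6 ± 1.4 and 26.1 ± 1.4 in whole sections and 21.5 ± 0.48, 31.2 ± 5.4 and 37.5 ± 3.2 in white matter. Old and young did not overlap in any of these 4 series. No share of all genes is given for this measure. In CPM, both old sections lay above both young ones for 32.1% of genes in whole sections and 25.5% in white matter.

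Markers of other cells that could carry Tyrobp were scarce. The 7 border macrophage genes summed to 5.08 to 6.71 CPM in young and 6.33 to 7.37 CPM in old whole sections, and to 8.43 to 14.3 and 9.25 to 22.1 CPM in white matter. In white matter Mrc1 had 50 UMIs and Lyve1 had 3 over all 6 sections, the latter with none in 3 of them. The 7 monocyte and neutrophil genes summed to 8.02 to 9.28 CPM in young and 2.77 to 6.75 CPM in old white matter, where Ly6g had no UMI in any section. The 7 lymphoid genes summed to at most 1.60 CPM in young white matter and to 0.925 CPM in old 1 and 10.9 CPM in old 2. The makeup of the white matter spots differed between ages too: 8 oligodendrocyte genes summed to 55941, 46737 and 50317 CPM and 6 neuron genes to 558, 880 and 651 CPM at the 3 ages. The astrocyte genes summed to 2423, 2593 and 2906 CPM, and old sections (2859 to 2954) did not overlap young ones (2261 to 2584). The part of these differences in the levels of Trem2 and Tyrobp was not tested.

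The genes whose levels most resembled the pair over regions and sections were microglial. Over 54 sums (9 regions in 6 sections), log2(CPM + 1) of Trem2 was most like that of Tyrobp among 11684 genes with a mean of at least 5 CPM (Pearson r = 0.954). C1qb (0.945), C1qc (0.938), Mpeg1 (0.929), C1qa (0.928), Fcer1g, Laptm5, Ctss and Cd52 (0.893) were among the next 9. The gene most like Tyrobp was C1qb (0.961), ahead of C1qa (0.958), C1qc (0.956) and Trem2. C1qa, C1qb and C1qc encode the subunits of the complement starter C1q, and Fcer1g encodes the other common adaptor of myeloid receptors. The 2 lists of 10 shared 8 genes. The points share sections, depth and regional makeup, so these values only describe the pattern.

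Of 47 other genes of the pathway, in 8 lists, 46 were in the files and 38 could be tested in whole sections. Between old and young whole sections 33 of the 38 were fitted above 0, against 49.3% of all genes. In that comparison 2 passed the edgeR test, both higher, against 0.164% of all genes called. The count fell to 0 without young 1, young 2, middle 1 or middle 2, and to 1 without old 2. Their median log2 fold change was 0.26, against 0.00 over all genes tested. In white matter 10 of 32 passed and were higher, against 2.17% of all genes called there, with a median of 0.87, and 6 passed without old 2. In the test of the difference between white matter and other spots 5 of 39 passed, with the 1.39% given above as the background. That count was 2 without middle 1 or middle 2 and 3 without young 2 or old 2. In whole sections 0 of 38 passed from young to middle (10 at an unadjusted p under 0.05, 2 by DESeq2) against 0.0679% of all genes, and 0 of 38 from middle to old (5 at that p, 0 by DESeq2), where edgeR called 0% of 17673 genes (361 at that p).

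Of the ligands, Apoe, the main lipid carrier of the brain, rose in white matter from 3431 ± 226 CPM in young to 6061 ± 673 CPM in old (SD, n = 2 each). Its log2 fold change was 0.77 (SE 0.12), with an edgeR adjusted p = 1.02e-04. In the whole section it measured 1566 ± 34 and 1953 ± 133 CPM (log2 fold change 0.27, edgeR adjusted p = 0.213) and was not called by edgeR, while DESeq2 called it (adjusted p = 0.0191). The difference between white matter and other spots passed for Apoe (0.57, edgeR adjusted p = 7.89e-09) and for Clu, which encodes clusterin (0.29, edgeR adjusted p = 0.0354). The call of Apoe was lost at Leiden resolution 1.2 (edgeR adjusted p = 0.0615). The call of Clu was lost without any 1 of the 6 sections, and with DESeq2, limma, RLE factors and resolution 1.2. Clu itself measured 2107 ± 20 CPM in young and 2752 ± 49 CPM in old white matter (edgeR adjusted p = 0.079). Apoe and Clu are made mainly by astrocytes, though microglia also make Apoe. The part of the higher astrocyte sum of old white matter in their levels was not tested.

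Of the proteases that cut Trem2 from the cell surface, Adam10 measured 88.2 ± 14 CPM in young and 108 ± 0.76 CPM in old white matter and Adam17 29.4 ± 3.8 and 26.7 ± 2.2 CPM. Neither passed the edgeR test (adjusted p = 0.399 and 0.761), and in whole sections neither did (0.916 and 0.864). The other adaptor, Hcst, measured 2.36 ± 0.50 and 4.76 ± 2.8 CPM in white matter (edgeR adjusted p = 0.498).

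Among the 11 genes of signalling below Tyrobp, 1 of 8 tested passed in white matter, against 2.17% of all genes called there. It was Lat2, an adaptor phosphorylated on receptor engagement, which rose from 4.89 ± 2.4 to 14.4 ± 1.8 CPM (log2 fold change 1.49, SE 0.34, edgeR adjusted p = 0.0141). Its difference between white matter and other spots also passed (1.43, edgeR adjusted p = 0.0451). The white matter call was lost without young 2, old 1 or old 2, and the call of the difference without any section but young 1. The white matter call was also lost with DESeq2, slide as a block, only the groups compared and Leiden resolution 1.2 (adjusted p = 0.274, 0.109, 0.0651 and 0.132). That of the difference was also lost with limma, no filter, resolution 1.2 and white matter taken as the spots richest in myelin (adjusted p = 0.333, 0.0616, 0.461 and 0.0525). In whole sections 0 of 11 passed in edgeR (3 at an unadjusted p under 0.05, 0 by DESeq2), against 0.164% of all genes called. Of the 11, 10 were fitted above 0, against 49.3% of all genes, with a median of 0.19. Bcl10 and Pik3cd, named for their level, had log2 fold changes of -0.04 and 0.00 there. Of the inhibitors, Inpp5d, which encodes the lipid phosphatase SHIP1, measured 9.64 ± 0.59 CPM in young and 17.8 ± 2.3 CPM in old white matter. Ptpn6, which encodes the phosphatase SHP-1, measured 7.30 ± 1.0 and 14.6 ± 6.9 CPM (edgeR adjusted p = 0.102 and 0.129), and neither passed.

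Of 9 other receptors that use Tyrobp, none of the 2 tested passed in edgeR in white matter or whole sections. The shares of all genes called there were 2.17% and 0.164%. Neither of the 2 reached an unadjusted p under 0.05 and DESeq2 called none. Siglech measured 20.9 ± 1.1 CPM in young and 19.2 ± 4.3 CPM in old white matter (edgeR adjusted p = 0.815), and Clec5a 2.57 ± 0.90 and 4.89 ± 1.0 CPM (edgeR adjusted p = 0.522). The other 7 were too low to test in either. Treml2, next to Trem2, had 9 and 14 UMIs in young and 26 and 18 in old whole sections (edgeR adjusted p = 0.291), and Treml1 was also not called (0.752). Of the transcription factors, Irf8 rose in white matter from 6.86 ± 2.9 to 20.3 ± 0.072 CPM (log2 fold change 1.51, SE 0.29, edgeR adjusted p = 0.0025). That call was lost with DESeq2 and with slide as a block (adjusted p = 0.0931 and 0.0944). Spi1, which encodes PU.1, measured 3.37 ± 0.057 CPM in young and 4.78 ± 0.0040 CPM in old whole sections (edgeR adjusted p = 0.18), and it did not pass.

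Genes of the microglial state that is known to need Trem2 had the highest median of the 7 lists tested in white matter. The lists and white matter were chosen with earlier results of these data known, so this order is only a description. In white matter 7 of 11 passed, all higher, and 11 of 11 were fitted above 0, with a median log2 fold change of 1.70. Of all genes tested there, 2.17% were called, 1.43% were called higher and 49.1% were fitted above 0. Itgax, which encodes the integrin CD11c, had 1 UMI in each young white matter and 25 and 50 UMIs in the old ones (edgeR adjusted p = 1.12e-06). Cst7, which encodes the protease inhibitor cystatin F, had 3 and 2 UMIs in young and 63 and 139 in old (edgeR adjusted p = 0.0109). Gpnmb rose from 7.03 ± 4.3 to 26.3 ± 12 CPM and Lilrb4a from 0.795 ± 0.58 to 6.52 ± 1.4 CPM (edgeR adjusted p = 0.0142 and 0.0229). The call of Gpnmb was lost without middle 1, middle 2 or old 2, that of Lilrb4a without young 1 or old 2, and that of Cst7 without young 2. With slide as a block, the calls of Gpnmb and Lilrb4a were lost too (edgeR adjusted p = 0.164 and 0.365), and that of Gpnmb also with only the groups compared (0.0671).

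In whole sections Cst7 and Itgax were the only 2 of the 11 to pass, against 0.164% of all genes called. Cst7 measured 0.234 and 0.206 CPM in young 1 and young 2 and 2.72 and 4.76 CPM in old 1 and old 2 (edgeR adjusted p = 0.029). Itgax measured 0.0910 and 0.0774 CPM, then 0.855 and 1.59 CPM (edgeR adjusted p = 0.0293). Both calls were lost without young 1, young 2, middle 1 or middle 2, and that of Itgax also without old 2. Both were also lost with only the groups compared, Itgax once slide was a block, and Cst7 with equal region mixes (edgeR adjusted p from 0.059 to 0.145). Lpl, a lipase of lipid uptake, and Axl, a receptor for apoptotic debris, were the 2 with a called difference between white matter and other spots (1.87 and 0.57, edgeR adjusted p = 3.28e-08 and 0.0483). With limma on differences within sections neither passed (adjusted p = 0.136 for Lpl and 0.393 for Axl). The call of Axl was also lost without any section but young 2, and with DESeq2, RLE factors, no filter and both other cluster resolutions. Lpl measured 14.1 ± 1.8 CPM in young and 13.6 ± 0.17 CPM in old whole sections, and 7.14 ± 3.5 and 23.4 ± 7.7 CPM in white matter.

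Resting microglia genes were tested in the same way. Over all genes edgeR called 0.164% in whole sections and 2.17% in white matter, and 49.3% were fitted above 0 in whole sections. In whole sections 0 of 11 passed in edgeR (6 at an unadjusted p under 0.05, 1 by DESeq2), all 11 were fitted above 0, and the median log2 fold change was 0.18. In white matter 5 of 11 passed, all higher, with a median of 0.63, and 3 passed without old 2. Fcrls rose from 19.7 ± 2.3 to 56.6 ± 21 CPM and Cx3cr1 from 24.9 ± 5.1 to 54.0 ± 3.1 CPM (edgeR adjusted p = 1.89e-04 and 2.96e-04). P2ry12 measured 50.8 ± 3.0 CPM in young and 54.3 ± 4.2 CPM in old white matter (edgeR adjusted p = 0.946), and Sall1 51.7 ± 5.1 and 53.9 ± 2.3 CPM (0.99). These 2 genes were singled out after their values were seen.

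**Figure D5:**
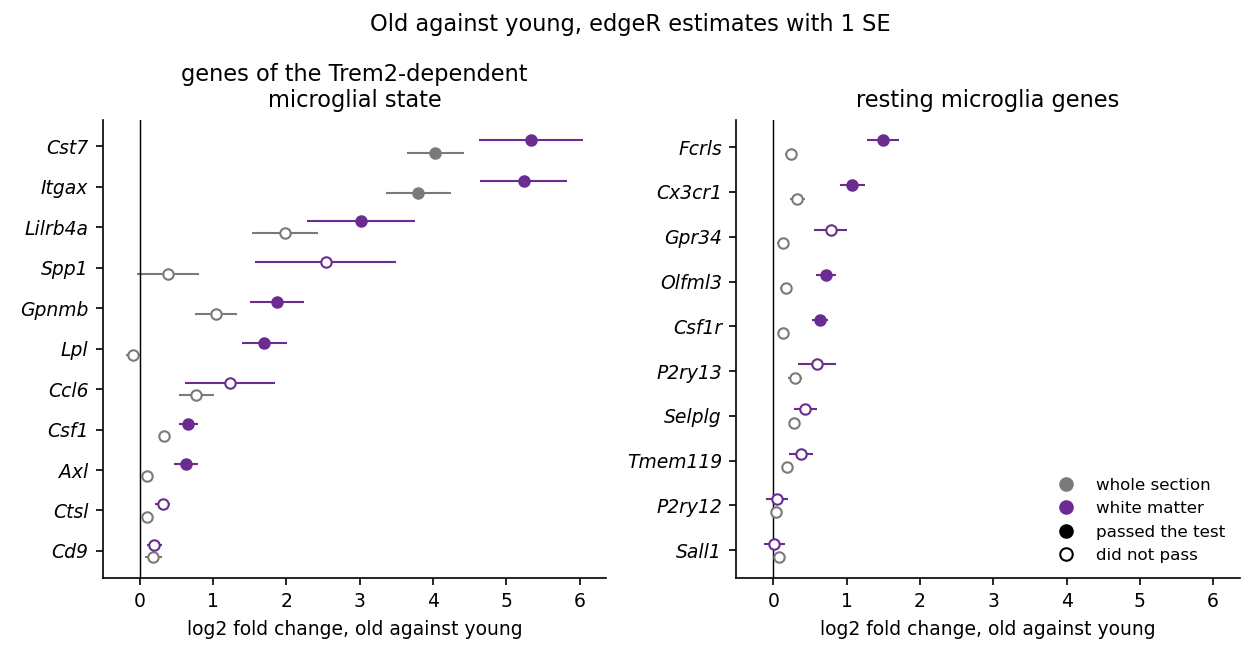
edgeR log2 fold changes of old against young, with 1 SE, for 11 genes of the Trem2-dependent microglial state (left) and 10 of the 11 resting microglia genes (right), in whole sections and in white matter. Filled points passed the test: 7 and 4 of the plotted genes in white matter and 2 and 0 in whole sections, and the fitted values of Cst7 and Itgax in white matter rest on at most 3 UMIs in each young section.

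The steps within white matter were read in the same lists. From young to middle white matter 1 gene of the 32 in the pathway rose (Itgax) and 1 fell (Cd9, a tetraspanin that oligodendrocytes also express, from 493 ± 4.5 to 378 ± 22 CPM), against 2.94% of all genes called. In the same comparison 4 of 8 oligodendrocyte genes were lower and 4 of 6 neuron genes higher, as the sums above show. From middle to old 6 of 32 passed, all higher, against 0.865% of all genes called. The 6 became 1 without middle 1 or middle 2 and 0 without old 2, and the 2 calls from young to middle became 1 without either middle section and up to 4 without young 1. Apoe, Clu, Gpnmb, Itgax, Cd9 and Ctsl, which encodes a lysosomal protease, were those 6. In that step Trem2 had a log2 fold change of 0.76 (SE 0.14) and Tyrobp of 0.71 (SE 0.13). From young to middle they had 0.95 (SE 0.16) and 0.78 (SE 0.14).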

How the data were processed

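UMIs per gene and spot were measured in 6 sections, 2 mice per age, which serve as replicates. Each p-value comes from 2 animals a group, but edgeR takes the spread of a gene largely from all genes. Its p-values can therefore be far smaller than 2 animals alone would give. For the difference between white matter and other spots, unadjusted edgeR p was 1.88e-13 for Trem2 and 6.70e-22 for Tyrobp. With limma on 1 difference per section, unadjusted p was 1.9e-04 and 8.6e-05. The deposited counts are raw UMI counts over tissue, which the authors produced in Space Ranger (version 1.3.1 in the matrix headers) against mm10, per the submitters' processing notes. A spot needed at least 500 UMIs. Spots were clustered jointly with microglial and immune genes left out (2000 variable genes, 30 components, 20 neighbours, Leiden resolution 0.8; scanpy 1.11.5, leidenalg 0.10.2, scikit-learn 1.9.0). A cluster was named when at least 3 markers of 1 region were among its leading 50 genes. Its first 10 genes had to hold 3 of them, or 2 if a marker came first, and no other region could have more there. Its leading 50 also had to hold at least 3 times as many markers as for the next region. A cluster far shallower than its sections was not to be named. This naming rule was chosen after the clusters were seen, before levels of Trem2 and Tyrobp by region were viewed. Spots differ in cell makeup, and doublets were not called.

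UMIs were summed per section and region, given as CPM, and tested in R 4.3.3 with edgeR 4.0.16 (filterByExpr, TMM, robust quasi-likelihood, 3 residual degrees of freedom, Benjamini-Hochberg adjusted p under 0.05 over all genes). limma 3.58.1 and DESeq2 1.42.0 were alternatives. SDs and n refer to sections, and counting intervals cover counting error only. Of each pathway list, genes that passed were named, and where none did, the most highly expressed ones. Trem2, Tyrobp, the lists and white matter as the region to compare were chosen with earlier results of these data known. A few list genes are counted but not reported singly here. The scripts were tested on simulated data. Other alternatives were other normalizations, filters, cluster resolutions, slide and pairing terms, thinned counts, equal region mixes and leaving out each section.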

Additional observations from a re-analysis of the deposited data

Results flagged for a closer look

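The change between old and young sections differed between white matter and the other spots of the same sections, by the test of that difference with section as a block. The log2 difference was 1.04 for Trem2 (edgeR adjusted p = 2.19e-10) and 0.91 for Tyrobp (edgeR adjusted p = 2.34e-18). With limma on differences within sections neither passed (adjusted p = 0.107 and 0.0714). Both old sections exceeded all 4 younger ones, and no share of all genes in that order is given for comparison. White matter had been chosen by earlier results of these data, which these p-values do not allow for.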

How the results depend on the processing

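With 2 animals an age, 3 residual degrees of freedom and slide tied in part to age, counts of calls depended on the setting. Between old and young, the log2 fold change of Trem2 in whole sections, 0.82, ran from 0.69 to 0.94 with 1 section left out. The difference between white matter and other spots was 1.04 for Trem2 and 0.90 for Tyrobp with limma and did not pass there; it passed under the other alternatives, with ranges of 0.84 to 1.25 and 0.76 to 1.05 when 1 section was left out. The log2 ratio of Tyrobp to Trem2 in white matter, old minus young, was -0.22 and ran from -0.46 to 0.013, above 0 without young 2.

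Of the pathway genes called in whole sections (2), 1 was called with at least 10 counts per section, slide as a block, the replicate block or equal region mixes, and 0 with only the groups compared (0 to 2 with 1 section left out). In white matter (10) DESeq2 and the filter of 10 counts gave 6 and slide as a block 3 (6 to 13 with 1 section left out). For the difference (5), DESeq2, limma and resolution 1.2 gave 1, RLE factors and no filter 3, and the spots richest in myelin 8 (2 to 5 with 1 section left out). Same-numbered sections correlated by 0.02, 0.13 and 0.24, so the numbers were not taken as pairs. With the replicate block Trem2 and Tyrobp had 0.82 and 0.71 in whole sections and 21 genes were called against 29. Over the alternatives the genes called numbered 6 to 194 in whole sections and 87 to 442 in white matter (261), both old against young. In white matter they numbered 34 to 1318 from young to middle (354) and 7 to 278 from middle to old (104), and for the difference 12 to 372 (243).

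Genes that were not called changed sign. In whole sections Adam17 had 6.9e-05 after thinning, Pik3cd -0.0028 without a filter, and Siglech -0.074 with equal region mixes. In white matter Siglech had 0.042 with slide as a block and 0.0022 in the spots richest in myelin, as it did in the difference (0.0022). With 1 section left out, the whole-section ranges were -0.059 to 0.022 for Adam10, -0.091 to 0.0086 for Adam17, -0.14 to 0.045 for Bcl10, -0.15 to 0.18 for Pik3cd, -0.10 to 0.12 for Siglech and -0.29 to 1.01 for Treml1. Siglech ran from -0.42 to 0.053 in white matter and Ptpn6 from -0.041 to 0.95 in the difference. The cause of these changes was not tested.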
